A study of Drosophila melanogaster with 12 samples.

Results

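The genes described here are 9 cell-surface receptors of the Nimrod and scavenger receptor families, nimC2, nimC1, eater, drpr, santa-maria, crq, emp, pes and Sr-CI, in RNA-seq of the larval fat body of Drosophila melanogaster. They were found by their gene symbols, and all 9 are among the 10047 genes of the deposited table. Fat bodies were dissected from female larvae at the third instar, in the wandering stage that ends larval life. Every larva carried UAS-Dcr2, on the X chromosome, and r4-GAL4, a driver active in the fat body, both from the mother. The father came from the VDRC 60000 stock (control, vw1118 in the sample titles) or from the VDRC 37058 stock, which carries UAS-EcR RNAi against the ecdysone receptor gene. Larvae of each cross were reared on 0.15 M sucrose, the control diet, or on 0.5 M sucrose, the high-sugar diet, which gave 4 groups of 3 libraries. The labels do not say whether the 3 libraries of a group came from separate crosses or cultures, so the p-values below measure the spread between these libraries, which may be technical.

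The Nimrod proteins share a cysteine-rich repeat, and several act as phagocytic receptors on hemocytes, the blood cells of the fly. Class B scavenger receptors are the CD36 family, which bind lipids, carotenoids and modified or dying-cell surfaces, and class C receptors are an insect group that binds bacteria. The larval fat body combines the roles of liver and adipose tissue and secretes immune peptides, and hemocytes can adhere to it. Ecdysone, acting through EcR, controls the end of larval life.

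The targeted gene did not separate the groups. EcR signal was 1368, 1559 and 1214 in the controls on 0.15 M sucrose, and in the libraries with the EcR RNAi label 1235, 1023 and 1138. With 0.5 M sucrose it was 1386, 1513 and 1463 in the controls and 1346, 1771 and 1125 in the other genotype. The ranges overlapped on both diets, and limma gave log2 differences of -0.28 ± 0.17 (SE, adjusted p = 0.386) and -0.06 ± 0.17 (adjusted p = 0.847). The gene w, which encodes the white pigment transporter, did separate the genotypes: it was higher in the libraries with the EcR RNAi label, by 0.75 ± 0.19 on 0.15 M sucrose (adjusted p = 0.0132) and by 0.77 ± 0.19 on 0.5 M sucrose (adjusted p = 0.00797), without overlap on either diet. The EcR knockdown therefore rests on the labels, and "EcRi" below means a library labelled EcR RNAi. The marker genes of the fat body, led by the larval serum proteins, together held 1704291 to 3733194 units of a total of 8864826 to 15045575 per library. The control library 0.5 M replicate 1 stood apart with the highest total, and 47.8% of its signal was in its 10 highest genes.

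Values are normalised signal per gene and library, on a linear scale and not divided by gene length. Differences between groups are on the log2(signal + 1) scale, with the standard error (SE) of a limma fit over all 12 libraries, and a gene is called where its p-value, adjusted over all 10047 genes by Benjamini-Hochberg, is under 0.05. The genes were chosen by measured values, since the EcRi-to-control differences were known, in particular the drop of nimC2 and santa-maria. Those differences are therefore given as a description, without p-values, while the effect of the diet and its difference between genotypes were tested.

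nimC2 encodes a transmembrane Nimrod protein and lies in the large Nimrod gene cluster on chromosome arm 2L. Its signal was 6675, 5189 and 7807 in the control libraries on 0.15 M sucrose (6557 ± 1313, SD, n = 3) and 7052, 5287 and 3929 in the controls on 0.5 M sucrose (5423 ± 1566). In the EcRi libraries it was 256, 232 and 364 on 0.15 M sucrose (284 ± 70.7) and 107, 103 and 84.2 on 0.5 M sucrose (98.1 ± 12.2). Each of the 6 EcRi libraries was below each of the 6 control libraries, and the EcRi libraries of the high-sugar diet were all below those of the control diet. The control mean was 23.1 times the EcRi mean on 0.15 M sucrose, a log2 difference of -4.53 ± 0.22, and 55.3 times the EcRi mean on 0.5 M sucrose, a log2 difference of -5.74 ± 0.22.

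santa-maria encodes a CD36-family receptor known for the uptake of carotenoids, the precursors of the visual chromophore, in cells of the adult head. Its signal was 617, 244 and 487 in the controls on 0.15 M sucrose (449 ± 190) and 334, 378 and 198 in the controls on 0.5 M sucrose (303 ± 93.6). In the EcRi libraries it was 20.9, 16 and 5.03 on 0.15 M sucrose (13.96 ± 8.11) and 11.1, 21.5 and 13.2 on 0.5 M sucrose (15.3 ± 5.51). As for nimC2, every EcRi library was below every control library, but here the EcRi libraries of the diets overlapped. The control mean was 32.2 times the EcRi mean on 0.15 M sucrose and 19.9 times on 0.5 M sucrose, with log2 differences of -5.00 ± 0.50 and -4.23 ± 0.50.

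**Figure D1:**
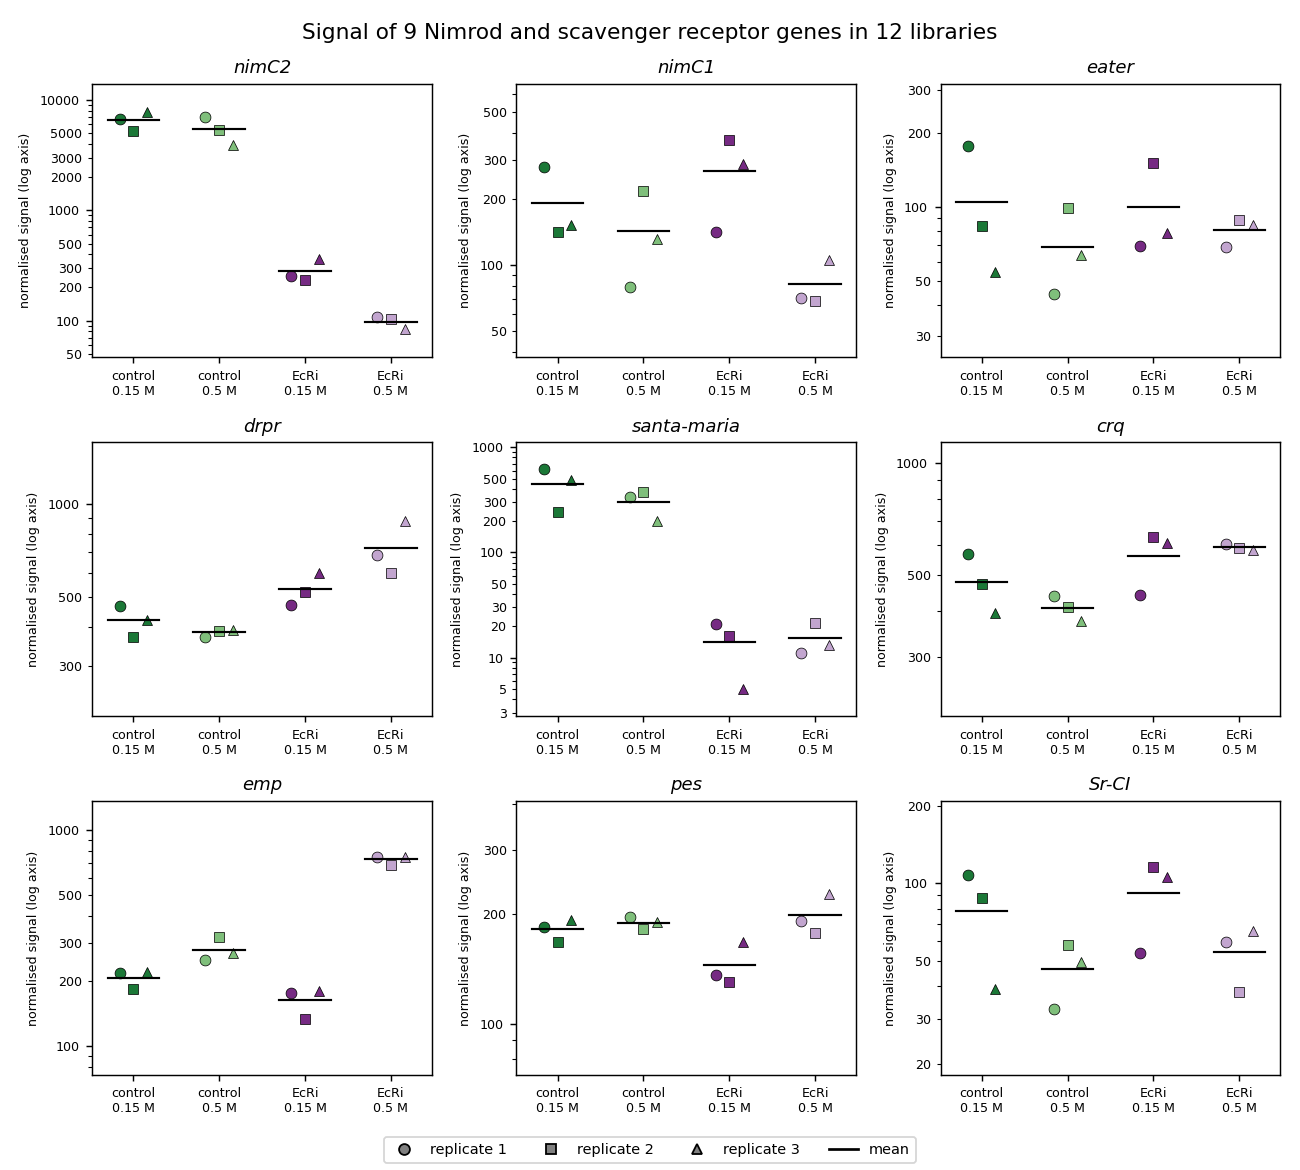
Normalised signal (log axis) of the 9 receptor genes in the 12 libraries, in 4 groups of 3; each point is a library, its shape the replicate number, and the black line is the group mean. The EcRi libraries of nimC2 and santa-maria all lie below the control libraries, whereas emp stands highest in the 3 EcRi libraries on 0.5 M sucrose (685 to 752).

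The other 7 genes did not share this drop. drpr encodes Draper, an engulfment receptor of the Nimrod superfamily that recognises dying cells and axon debris. Its signal was 469, 371 and 421 in the controls and 473, 521 and 597 in the EcRi libraries on 0.15 M sucrose, and 372, 389 and 392 against 683, 601 and 880 on 0.5 M sucrose. EcRi libraries were above the controls on both diets without overlap, by a log2 difference of 0.33 ± 0.16 and of 0.89 ± 0.16. The second of these is a ratio of means of 1.88.

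crq encodes Croquemort, a CD36-family receptor that takes up apoptotic cells in the embryo. Its signal was 568, 471 and 394 in the controls and 442, 632 and 610 in the EcRi libraries on 0.15 M sucrose, where the groups overlapped. On 0.5 M sucrose it was 439, 409 and 374 in the controls and 606, 591 and 584 in the EcRi libraries, which did not overlap. The log2 differences were 0.23 ± 0.16 and 0.54 ± 0.16.

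emp encodes a CD36-family receptor that clears proteins from the lumen of the tracheal tubes. Its signal was 217, 183 and 221 in the controls and 177, 133 and 180 in the EcRi libraries on 0.15 M sucrose, so that the EcRi libraries were the lower ones. On 0.5 M sucrose the order was the opposite, with 251, 318 and 270 in the controls and 751, 685 and 752 in the EcRi libraries. The log2 differences were -0.35 ± 0.15 and 1.38 ± 0.15, the latter a ratio of means of 2.61.

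pes encodes Peste, a CD36-family protein needed for uptake of mycobacteria in a fly cell line. Its signal was 184, 168 and 193 in the controls and 136, 130 and 168 in the EcRi libraries on 0.15 M sucrose, and 197, 182 and 190 against 191, 178 and 227 on 0.5 M sucrose. The EcRi libraries were just below the controls on 0.15 M sucrose (log2 difference -0.33 ± 0.15) and overlapped them on 0.5 M sucrose (0.06 ± 0.15).

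nimC1, eater and Sr-CI, receptors of the plasmatocyte, the phagocytic hemocyte, overlapped between the genotypes on both diets. nimC1, the P1 antigen of plasmatocytes, gave 279, 141 and 152 in the controls and 142, 373 and 290 in the EcRi libraries on 0.15 M sucrose, and 79.4, 216 and 132 against 70.7, 68.4 and 106 on 0.5 M sucrose. eater, a receptor for bacteria that also holds plasmatocytes to tissue, gave 176, 83.5 and 54.2 against 69.3, 152 and 78.3 on 0.15 M sucrose, and 44.2, 99.0 and 63.5 against 68.7, 88.8 and 84.6 on 0.5 M sucrose. Sr-CI, a class C receptor that binds bacteria, gave 107, 87.6 and 38.9 against 53.8, 116 and 106 on 0.15 M sucrose, and 32.7, 57.6 and 49.5 against 59.6, 38.1 and 65.3 on 0.5 M sucrose. The log2 differences of the 3 genes were 0.45 ± 0.45, 0.01 ± 0.43 and 0.28 ± 0.39 on 0.15 M sucrose and of -0.71 ± 0.45, 0.29 ± 0.43 and 0.22 ± 0.39 on 0.5 M sucrose.

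In the fit over all genes, 2 of the 9 passed the threshold for a call between EcRi and control on 0.15 M sucrose, both lower, where 11.2% of all genes were called, and 5 of 9 on 0.5 M sucrose, 3 higher and 2 lower, where 19.1% were called. Control and EcRi libraries did not overlap for 5 of the 9 genes on each diet, against 28% of all genes on 0.15 M sucrose and 35.6% on 0.5 M sucrose. Since this contrast served to choose the genes, these counts are no test of them, and nothing is read from them.

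The levels of the genes can be compared with each other only per length. On signal per kilobase of exon, nimC2 stood highest in the controls, at 2326 ± 466 (SD, n = 3) on 0.15 M sucrose and 1924 ± 555 on 0.5 M sucrose. crq came next, at 168 ± 30.5 and 143 ± 11.4 per kilobase, and neither gene overlapped its neighbours in the order. The other 7 genes lay between 20.9 and 88.3 per kilobase on average in the controls, and on 0.15 M sucrose each of them overlapped the next in that order. In the EcRi libraries on 0.15 M sucrose crq was highest at 197 ± 36.6 per kilobase, nimC2 was the third at 101 ± 25.1, overlapping drpr above it and nimC1 below it, and santa-maria was last at 2.51 ± 1.46. In the EcRi libraries on 0.5 M sucrose crq (208 ± 3.98) and emp (207 ± 11.0) shared the top of the order with overlapping values, drpr followed at 152 ± 30.2, and nimC2 was the fifth at 34.8 ± 4.31 per kilobase. These lengths are the summed exons of the Ensembl annotation, which may differ from the gene models the authors counted on.

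The diet was compared within each genotype. In the control libraries limma called 0 of the 9 genes, against 1.72% of all genes (1.55% higher), and 1 gene had an unadjusted p under 0.05. That gene was emp, higher by 0.43 ± 0.15 on 0.5 M sucrose (adjusted p = 0.207) with no overlap between the diets. Groups did not overlap for 1 of 9 genes, against 18% of all genes. With library weights in the limma fit, emp was called in this comparison (0.47, adjusted p = 0.0162). The log2 differences of the other 8 genes lay between -0.65 ± 0.39 for Sr-CI and 0.06 ± 0.15 for pes.

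In the EcRi libraries 4 of the 9 genes were called between the diets, 2 higher and 2 lower on 0.5 M sucrose, against 24.4% of all genes. emp rose 4.47-fold, by 2.17 ± 0.15 on the log2 scale (adjusted p = 3.98e-07), and each of its 3 high-sugar libraries was above the 3 on the control diet. nimC2 fell by 1.50 ± 0.22 (adjusted p = 0.000314), again in 3 of 3 libraries without overlap. These were the 2 genes called in each fit that left out 1 library.

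nimC1 fell by 1.62 ± 0.45 on the log2 scale (adjusted p = 0.0249), from 268 ± 117 to 81.5 ± 20.8 with no overlap. That call was lost without EcRi 0.15 M replicate 2 (adjusted p = 0.0790) or replicate 3 (adjusted p = 0.0641), and without EcRi 0.5 M replicate 1 (adjusted p = 0.0938) or replicate 2 (adjusted p = 0.0772). pes rose by 0.46 ± 0.15 (adjusted p = 0.0362), with a mean of 145 ± 20.1 on 0.15 M and 198 ± 25.2 on 0.5 M sucrose and no overlap. Its call was lost without EcRi 0.15 M replicate 1 (adjusted p = 0.0992) or replicate 2 (adjusted p = 0.130), without EcRi 0.5 M replicate 1 (adjusted p = 0.0827) or replicate 3 (adjusted p = 0.139), with scaling to a common upper quartile (0.25, adjusted p = 0.217) and with only the EcRi groups in the fit (adjusted p = 0.0526). Upper quartile scaling moved the median of all genes by -0.21 in this comparison.

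drpr, at 530 ± 62.9 and 721 ± 144, differed by 0.43 ± 0.16 without overlap and was not called (adjusted p = 0.0553). It was called in the fits without EcRi 0.15 M replicate 3 (adjusted p = 0.0460), control 0.5 M replicate 1 (adjusted p = 0.0411) or EcRi 0.5 M replicate 2 (adjusted p = 0.0358). Groups did not overlap for 5 of the 9 genes, against 44.7% of all genes. The remaining genes were not called, with log2 differences of -0.71 ± 0.39 for Sr-CI (adjusted p = 0.198), -0.22 ± 0.43 for eater, 0.26 ± 0.50 for santa-maria and 0.10 ± 0.16 for crq.

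**Figure D2:**
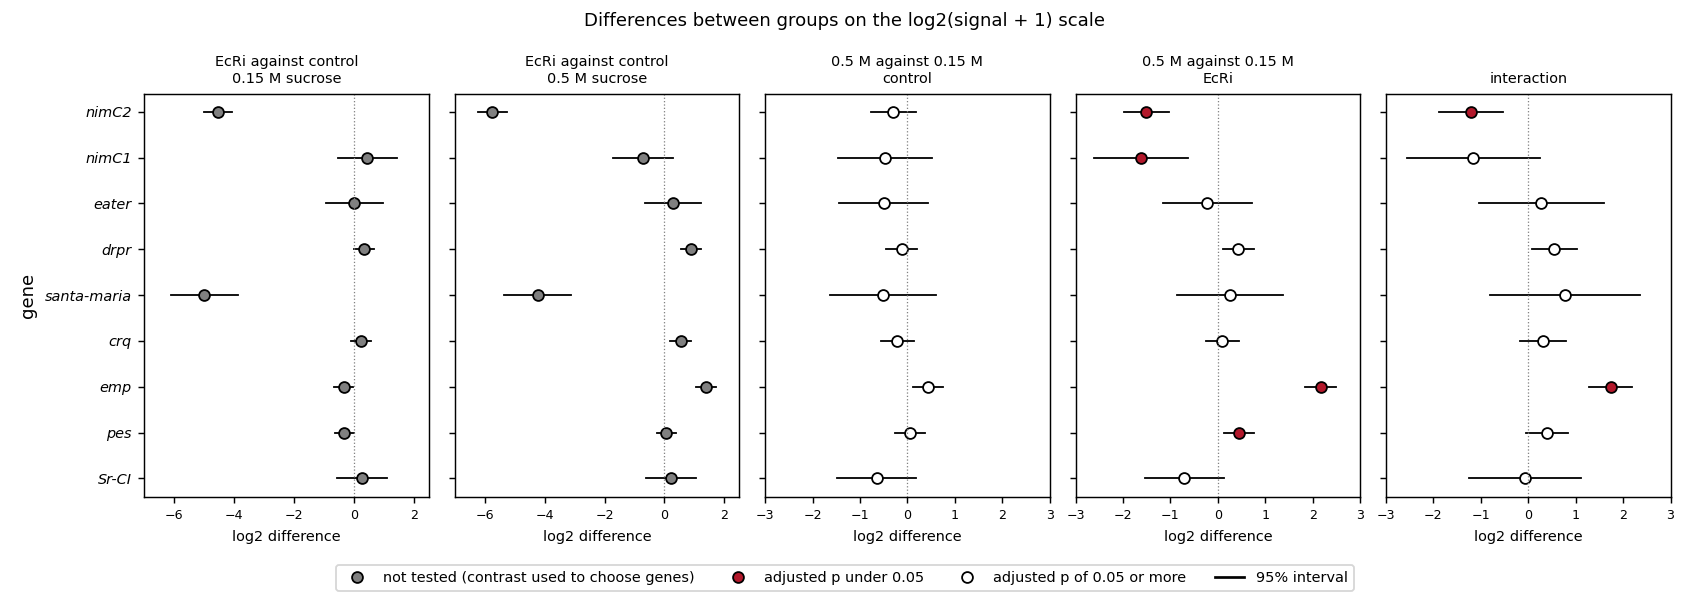
Log2 differences of the 9 genes with their 95% intervals (bars) from limma over 12 libraries, for the EcRi-to-control contrast on each diet, the diet contrast in each genotype, and the interaction. Grey points have no p-value here because that contrast chose the genes, red points have an adjusted p under 0.05 and open points do not; emp lies at 2.17 for the diet in EcRi and at 1.73 for the interaction.

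Whether the diet effect differed between genotypes was tested as the interaction term, the genotype difference on 0.5 M minus that on 0.15 M sucrose. It was called for 2 of the 9 genes, 1 positive and 1 negative, against 3.92% of all genes, 2.59% positive and 1.33% negative. For emp it was 1.73 ± 0.22 (adjusted p = 0.000581), and it was called in each of the 12 fits that left out a library, with values of 1.60 to 1.83. For nimC2 it was -1.21 ± 0.32 (adjusted p = 0.0441). That call was lost in 10 of the 12 fits that left out a library, at adjusted p of 0.0611 to 0.113, and was kept only without control 0.15 M replicate 3 (adjusted p = 0.0428) or control 0.5 M replicate 3 (adjusted p = 0.0283). drpr, at 0.55 ± 0.22, was not called (adjusted p = 0.160), and the other 6 genes ranged from -1.16 ± 0.63 for nimC1 to 0.78 ± 0.71 for santa-maria, none called.

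Exons of 5 of the genes overlap those of another gene. No source used here states whether counting used the strand, so reads of such partners cannot be told apart. nimC2 overlaps rk, the receptor of the tanning hormone bursicon, on the other strand, and rk means were 75.9, 71.0, 41.0 and 12.8 in the controls on 0.15 M and 0.5 M and the EcRi libraries on 0.15 M and 0.5 M sucrose. rk was called lower in EcRi on 0.5 M sucrose (-2.67 ± 0.52, adjusted p = 0.00274) and lower on 0.5 M sucrose within EcRi (-1.82 ± 0.52, adjusted p = 0.0237), both contrasts in which nimC2 was lower too. nimC2 means in the same order were 6557, 5423, 284 and 98.1. santa-maria overlaps CG5973 on the other strand, whose means in the same order, 48.5, 37.3, 52.7 and 47.0, were called in none of the comparisons.

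emp overlaps its neighbour CG3829, another CD36-family gene, on the other strand. CG3829 means were 1452, 1184, 1327 and 2068 in the same order of groups, above those of emp in each group. It was called higher in EcRi on 0.5 M sucrose (0.82 ± 0.18, adjusted p = 0.00407) and higher on 0.5 M sucrose within EcRi (0.63 ± 0.18, adjusted p = 0.0203), but the latter was lost with upper quartile scaling (adjusted p = 0.0773) and without EcRi 0.15 M replicate 1 or 3, or EcRi 0.5 M replicate 1 or 2 (adjusted p up to 0.0937). The part of CG3829 reads in the emp values was not tested. crq overlaps ex on the other strand, with means of 466, 352, 303 and 348, and ex was called lower in EcRi on 0.15 M sucrose (-0.61 ± 0.15, adjusted p = 0.0129). drpr overlaps Oseg4 on its own strand, with means of 123, 96.5, 134 and 63.6, and Oseg4 was called lower on 0.5 M sucrose within EcRi (-1.12 ± 0.27, adjusted p = 0.00890), where the drpr difference was positive.

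The cluster around nimC2 was then followed gene by gene. In the annotation the order along the arm is NimA, NimB1, NimB2, NimB3, NimB4, NimB5, He, NimC1, Cyp28a5, NimC2 and rk, and NimC3 follows further on. Of 8 Nimrod genes listed beside the 9 receptors, 7 were in the table, and NimC4 was not analysed here. On 0.15 M sucrose 4 of these 7 were higher in EcRi and 0 were lower, with a median log2 difference of 0.71 against 0.04 over all genes; 6.19% of all genes were called higher and 5.01% lower. nimB2, which encodes a secreted Nimrod protein, had 4052, 4165 and 2583 in the controls and 9935, 8990 and 8374 in the EcRi libraries, a rise of 1.37 ± 0.27 (adjusted p = 0.00225). nimC3 rose by 0.82 ± 0.15 (adjusted p = 0.00127), from 118 ± 18.5 to 208 ± 8.95. Neither nimB2 nor nimC3 overlapped between genotypes there, and both calls held in each of 12 fits without 1 library.

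nimB4, also a secreted Nimrod protein, rose by 0.71 ± 0.19 (adjusted p = 0.0222), from 802 ± 61.3 to 1319 ± 129. nimB3 was the other gene called, at 0.93 ± 0.26 (adjusted p = 0.0303), and it is named because the count is small. Both were lost without control 0.15 M replicate 2 or 3, or without EcRi 0.15 M replicate 1 or 2, at adjusted p of up to 0.0912 for nimB4 and 0.130 for nimB3. On 0.5 M sucrose limma called 0 of the 7 (2 at an unadjusted p under 0.05), against 10.9% of all genes higher and 8.11% lower. nimB2 stood at 5835 ± 2638 in the controls and 9371 ± 928 in the EcRi libraries, a difference of 0.77 ± 0.27 (adjusted p = 0.0547). The count became 1 higher without control 0.15 M replicate 3 or control 0.5 M replicate 1, 1 lower without control 0.5 M replicate 2 or with upper quartile scaling, and 2 higher and 1 lower with library weights. Between the diets 0 of 7 were called in either genotype, against 1.72% of all genes in the controls and 24.4% in EcRi. At an unadjusted limma p under 0.05 were 5 in the controls and 0 in EcRi, against 1443 and 3798 of all 10047 genes. The interaction called 0 of 7, against 3.92% of all genes, with 3 at an unadjusted p under 0.05, against 2162 of all genes. nimB2 shares exon sequence with nimB1 on the other strand, nimB5 with He, and nimC3 with asRNA:CR44849.

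**Figure D3:**
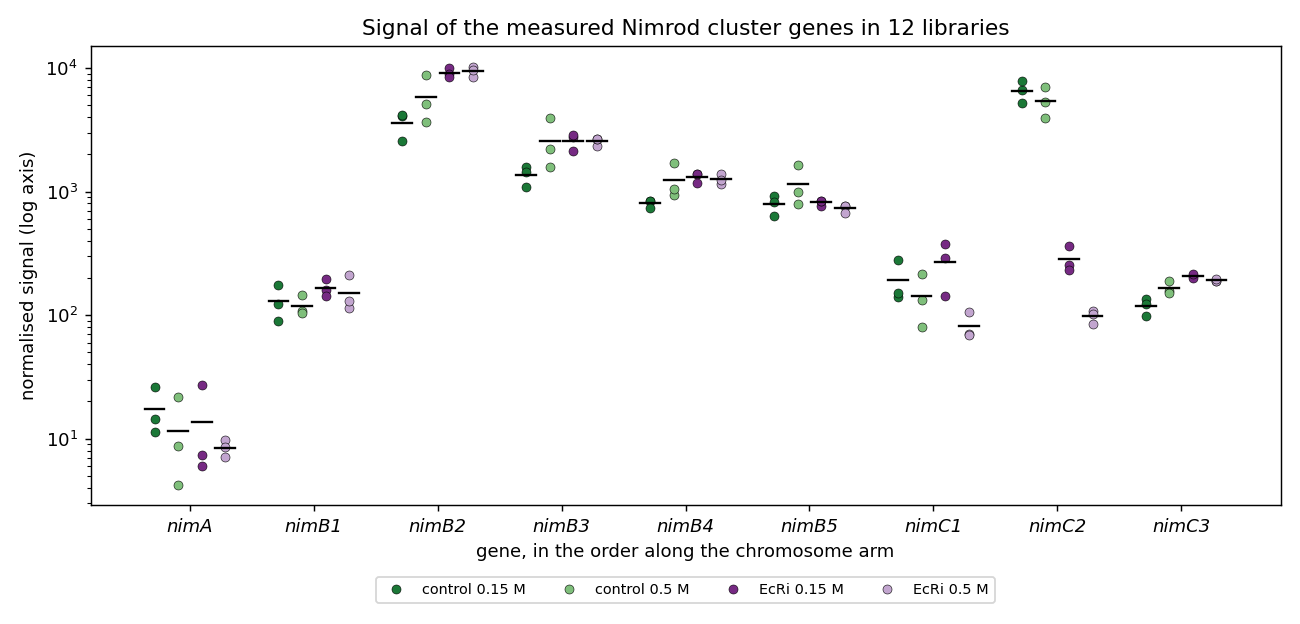
Normalised signal (log axis) of the measured genes of the Nimrod cluster in their order along the chromosome arm, for 12 libraries in 4 groups; points are libraries and lines are group means. nimC2 drops from 6557 and 5423 in the controls to 284 and 98.1 in the EcRi libraries, while nimB2 stands at 3600 and 5835 in the controls and 9100 and 9371 in the EcRi libraries.

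The gene between nimC1 and nimC2, Cyp28a5, a cytochrome P450, had means of 1479, 1676, 1318 and 831 in the order of groups given above. It is named for its position. It was called lower in EcRi on 0.5 M sucrose (-0.94 ± 0.30, adjusted p = 0.0407) and not on 0.15 M sucrose (-0.14 ± 0.30, adjusted p = 0.853).

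Of 10 further genes of the CD36 family, 8 were in the table. On 0.15 M sucrose 0 were higher and 2 were lower in EcRi, with a median of -0.12, where 6.19% of all genes were called higher and 5.01% lower. CG7227 had 79.9, 43.6 and 81.7 in the controls and 15.4, 12.2 and 7.03 in the EcRi libraries, a log2 difference of -2.47 (adjusted p = 8.86e-05). It shares exon sequence with asRNA:CR44996 on the other strand. CG2736 fell by 0.90 (adjusted p = 0.0241), from 3409 ± 351 to 1823 ± 205, and lost its call without any one of control 0.15 M replicates 1 and 2 and EcRi 0.15 M replicates 1, 2 and 3 (adjusted p up to 0.113).

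Of the same 8, 1 was higher on 0.5 M sucrose and 3 were lower there, with a median of -0.71 against -0.00 over all genes, of which 10.9% were called higher and 8.11% lower. The higher one was CG3829, given above. CG7227 fell by 2.60 (adjusted p = 4.22e-05), CG2736 by 1.64 (adjusted p = 0.000159) and CG1887 by 0.85 (adjusted p = 0.00169). CG1887, now named dsb, averaged 948 ± 199 in the controls and 523 ± 86.0 in the EcRi libraries. These calls held in each fit without 1 library.

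Between the diets 0 of the 8 were called in the controls (1 at an unadjusted p under 0.05), against 1.72% of all genes called. In EcRi 1 was higher, CG3829, and 2 were lower on 0.5 M sucrose, against 14% and 10.4% of all genes. Snmp1, the sensory neuron membrane protein of pheromone-sensing neurons, fell by 1.67 (adjusted p = 0.00255), from 56.0 ± 7.17 to 18.6 ± 10.4. CG40006 fell by 1.25 (adjusted p = 0.00140), from 66.6 ± 3.96 to 27.5 ± 2.28. The interaction called 0 of 8, with 3 at an unadjusted p under 0.05, against 3.92% of all genes called. ninaD, the other CD36-family carotenoid receptor of the fly, spread from 4.40 to 136 over the 12 libraries and was called in none of the comparisons.

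Sr-CIV was the measured relative of Sr-CI, out of 3 class C genes listed. Its signal was 34.0, 32.3 and 36.8 in the controls and 51.1, 49.8 and 49.2 in the EcRi libraries on 0.15 M sucrose, and 34.9, 34.3 and 41.6 against 17.2, 14.1 and 13.997 on 0.5 M sucrose. EcRi libraries thus lay above the controls on one diet and below them on the other, without overlap on either. The difference was not called on 0.15 M sucrose (0.53), and was -1.24 on 0.5 M sucrose (adjusted p = 0.000872). Within EcRi, Sr-CIV fell by 1.67 on 0.5 M sucrose (adjusted p = 0.000138), and the interaction was -1.77 (adjusted p = 0.00805), called in each of 12 fits without 1 library. Sr-CIV shares exon sequence with CG8851 on the other strand.

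Genes that work with Draper and other receptors in engulfment, from ligands and receptors to phagosome proteins, were also counted. Of 19 such genes, 1 was higher and 1 lower in EcRi on 0.15 M sucrose, a share near the 6.19% and 5.01% of all genes. In all 1 was called without control 0.15 M replicate 3 or EcRi 0.15 M replicate 1, and 4 without control 0.5 M replicate 1. ced-6, the adaptor of Draper, fell by 1.19 (adjusted p = 0.000270), from 3831, 3356 and 3747 in the controls to 1617, 1503 and 1666. Dscam, a receptor with hemocyte forms, rose by 0.64 (adjusted p = 0.0240), a call lost without control 0.15 M replicate 1 or 3 or EcRi 0.15 M replicate 1 (adjusted p up to 0.140). There were 5 higher and 1 lower on 0.5 M sucrose, against 10.9% and 8.11% of all genes, and 3 were called in all without control 0.5 M replicate 1 or EcRi 0.5 M replicate 1. The higher ones included mbc (0.73, adjusted p = 0.00188), an exchange factor of the small GTPase Rac, scb (0.97, adjusted p = 0.00432), an integrin alpha subunit, and prtp (0.63, adjusted p = 0.00740), which encodes a ligand of Draper. The lower one was ced-6 (-0.56, adjusted p = 0.0446), whose call was kept in 1 of 12 fits without 1 library, that without control 0.5 M replicate 3 (highest adjusted p of the others 0.127).

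Between the diets 0 of the 19 were called in the controls (2 at an unadjusted p under 0.05), against 1.72% of all genes called. In EcRi 7 were higher and 1 lower on 0.5 M sucrose, against 14% and 10.4% of all genes, and 3 and 3 with upper quartile scaling. Without EcRi 0.15 M replicate 1 or EcRi 0.5 M replicate 1, 5 were called in all. Rab7, a GTPase of late endosomes and phagosomes, rose by 1.04 (adjusted p = 0.000820), ced-6 by 0.79 (adjusted p = 0.00653) and mbc by 0.63 (adjusted p = 0.00655). The interaction called 1 of 19, against 3.92% of all genes. That gene was Rab7 (0.97, adjusted p = 0.0428), a call kept in 3 of 12 fits without 1 library (adjusted p up to 0.127) and lost with upper quartile scaling (adjusted p = 0.0560).

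Of 5 genes of carotenoid and retinoid use listed beside santa-maria, 3 were measured. pinta, a retinoid-binding protein of the eye, was higher in EcRi on both diets, by 1.19 (adjusted p = 8.41e-05) and 1.29 (adjusted p = 2.84e-05). Its signal was 105, 88.9 and 89.9 in the controls against 175, 265 and 218 on 0.15 M sucrose, and 147, 119 and 120 against 320, 301 and 327 on 0.5 M sucrose. Within EcRi it was also higher on 0.5 M sucrose (0.55, adjusted p = 0.0244), which was lost with upper quartile scaling (adjusted p = 0.118) and without EcRi 0.15 M replicate 1 or 3 or EcRi 0.5 M replicate 1 or 3 (adjusted p up to 0.112). ninaB, the enzyme that cleaves carotenoids, was lower there (-1.73, adjusted p = 0.0143, lost without EcRi 0.15 M replicate 1 at adjusted p = 0.0577) at means of 10.3 and 2.18. The controls had 0 of 3 called between diets (1 at an unadjusted p under 0.05), against 1.72% of all genes. The interaction called 0 (0 at an unadjusted p under 0.05), against 3.92%.

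Among 7 genes of lipoprotein assembly and sterol uptake, 1 was higher in EcRi on each diet and 0 were lower. Over all genes 6.19% were called higher and 5.01% lower on 0.15 M sucrose, and 10.9% and 8.11% on 0.5 M sucrose. The gene was CG15828, now named Apoltp, a lipid transfer particle protein made by the fat body. It rose by 1.11 on 0.15 M (adjusted p = 0.00192) and by 1.25 on 0.5 M sucrose (adjusted p = 0.000479), from 991 ± 181 to 2125 ± 312 and from 980 ± 255 to 2316 ± 475. Between the diets 0 of 7 were called in the controls (1 at an unadjusted p under 0.05), against 1.72% of all genes. In EcRi 1 was lower, against 10.4% of all genes. It was the lipophorin receptor gene LpR1 (-0.46, adjusted p = 0.0448), a call kept in 2 of 12 fits without 1 library (adjusted p up to 0.156). The interaction called 0 of 7, with 1 at an unadjusted p under 0.05, against 3.92% of all genes called.

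nimC1, eater and Sr-CI had a within-group standard deviation of 0.60, 0.60 and 0.56 on the log2 scale, and santa-maria 0.69, against a median of 0.28 over all genes. The other 5 genes had 0.14 (pes), 0.17 (emp), 0.19 (drpr), 0.20 (crq) and 0.32 (nimC2). The 3 plasmatocyte receptors were at the top or bottom of their group together in 5 of the 12 libraries. All 3 were highest of their group in control 0.15 M replicate 1, control 0.5 M replicate 2 and EcRi 0.15 M replicate 2, and lowest in control 0.5 M replicate 1 and EcRi 0.15 M replicate 1. They parted in others: in EcRi 0.5 M replicate 2 eater was highest of its group (88.8) and nimC1 (68.4) and Sr-CI (38.1) were lowest, and in control 0.15 M replicate 2 nimC1 alone was lowest (141). Some genes of other lists shared the order in the 5 libraries. The markers proPO-A1 and PO45 of crystal cells, which are hemocytes too, and the salivary gland marker Sgs5 were highest and lowest in the same libraries. The crystal cell marker lz and the other salivary gland markers were not. For proPO-A1 the values were 2923, 1722 and 1009 in control 0.15 M, 408, 1690 and 1100 in control 0.5 M, and 501, 1477 and 1270 in EcRi 0.15 M.

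Hml, hemolectin, a marker of plasmatocytes, had 1710, 1036 and 585 in the controls and 445, 620 and 756 in the EcRi libraries on 0.15 M sucrose, and 445, 831 and 739 against 679, 437 and 661 on 0.5 M sucrose. It was thus also highest in control 0.15 M replicate 1 and control 0.5 M replicate 2, and lowest in control 0.5 M replicate 1 and EcRi 0.15 M replicate 1, but not highest in EcRi 0.15 M replicate 2. He, of the same marker list, was highest in control 0.15 M replicate 1, control 0.5 M replicate 2 and EcRi 0.15 M replicate 2. It was lowest in control 0.5 M replicate 1, but not in EcRi 0.15 M replicate 1. The 9 genes of the plasmatocyte list did not move as one across these libraries. In control 0.15 M replicate 1, 7 of the 9 were highest of their group and 2, ush and zfh1, were lowest. In control 0.5 M replicate 1, 5 were lowest, Hml among them, and 4 were highest, namely Glt, Pvr, ush and zfh1. In control 0.5 M replicate 2, 3 were highest and 3 lowest, and in each of EcRi 0.15 M replicates 1 and 2, 2 were highest and 3 lowest. The part of hemocyte content in the values of nimC1, eater and Sr-CI was not tested, and in bulk tissue fewer hemocytes and less RNA per hemocyte cannot be told apart.

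**Figure D4:**
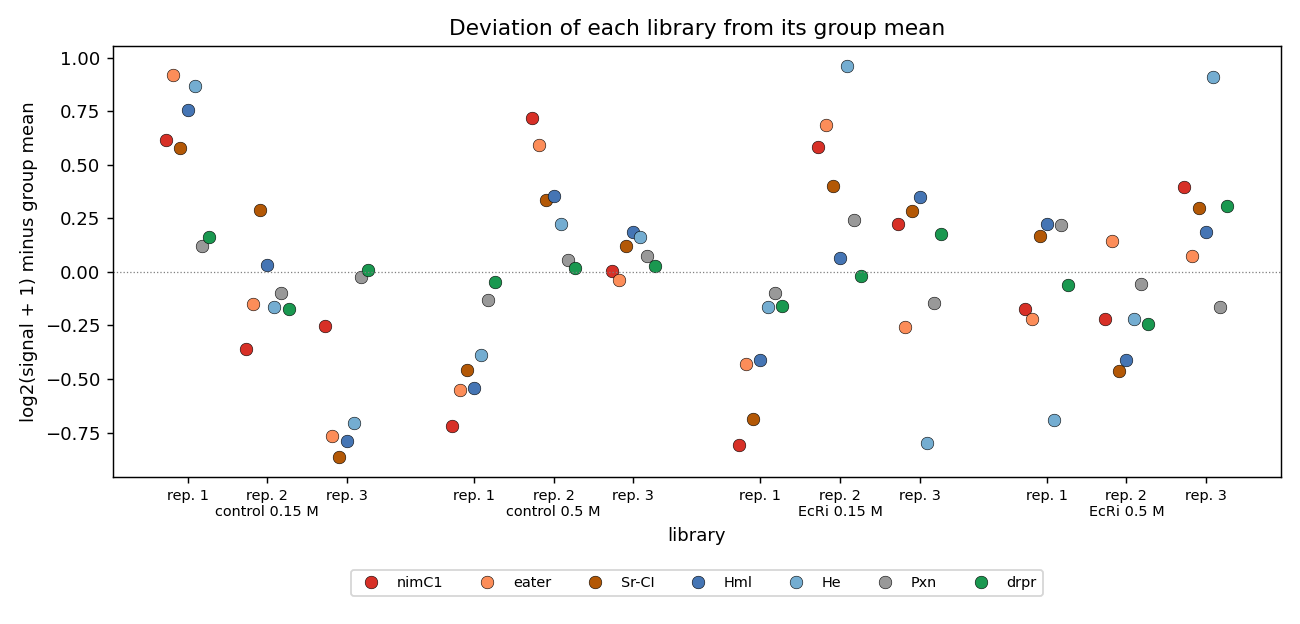
Deviation of each library from its group mean, on the log2(signal + 1) scale, for nimC1, eater, Sr-CI and drpr and for the plasmatocyte markers Hml, He and Pxn, in 12 libraries. nimC1, eater and Sr-CI lie above 0 in control 0.15 M replicate 1, control 0.5 M replicate 2 and EcRi 0.15 M replicate 2 and below 0 in control 0.5 M replicate 1 and EcRi 0.15 M replicate 1. Hml and He lie on the same side of 0 as these receptors in those libraries, Hml only just in EcRi 0.15 M replicate 2. Pxn does so too, but with smaller deviations, and drpr also deviates less than the receptors there.

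The plasmatocyte list as a whole, 9 of 9 genes measured, summed to 7047 to 8706 and 8260 to 8760 in the controls on 0.15 M and 0.5 M sucrose, and to 7873 to 8868 and 10571 to 12486 in the EcRi libraries. The mean sum in EcRi was 8529 on 0.15 M and 11326 on 0.5 M sucrose, and Pxn alone averaged 2788 and 5616 there. In the controls Pxn averaged 1592 and 2936. The higher sum in EcRi on 0.5 M sucrose was thus mostly that of Pxn. In EcRi on 0.15 M sucrose 1 gene was higher, Pxn (0.80, adjusted p = 0.00385), and 1 lower, zfh1 (-1.02, adjusted p = 0.000522), against 6.19% and 5.01% of all genes. On 0.5 M sucrose 1 was higher, Pxn (0.93, adjusted p = 0.000799), against 10.9%, and 0 were lower, against 8.11%. Pxn encodes peroxidasin, an enzyme of basement membrane. Between the diets 1 was higher in the controls against 1.55% of all genes, Pxn (0.88, adjusted p = 0.0124), lost without control 0.15 M replicate 2 or 3 or control 0.5 M replicate 3 (adjusted p up to 0.0678). In EcRi 3 were higher and 1 lower, against 14% and 10.4% of all genes. The higher ones were Pxn (1.01, adjusted p = 0.000692), zfh1 (0.81, adjusted p = 0.00321) and Pvr (0.59, adjusted p = 0.0163). The Pvr call was lost without EcRi 0.15 M replicate 2 or EcRi 0.5 M replicate 1 (adjusted p up to 0.0630) and with upper quartile scaling (adjusted p = 0.0675). The lower gene was He, hemese, a hemocyte surface protein whose gene lies beside nimC1 (-2.16, adjusted p = 0.0232), which fell along with nimC1 and lost its call without EcRi 0.15 M replicate 1 or 2 or EcRi 0.5 M replicate 1 or 2 (adjusted p up to 0.0939). The interaction called 1 of 9, against 3.92% of all genes. That gene was zfh1 (1.03, adjusted p = 0.0271), a call kept in 6 of 12 fits without 1 library (adjusted p up to 0.0800).

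Markers of other cell types moved with the same contrasts. Over all genes 6.19% were called higher and 5.01% lower in EcRi on 0.15 M sucrose, 10.9% and 8.11% on 0.5 M sucrose, and 14% and 10.4% on 0.5 M sucrose within EcRi. The 3 lamellocyte markers were all higher in EcRi on 0.15 M sucrose, with sums of 35.8 to 58.8 in the controls and 149 to 247 in EcRi, and all lower on 0.5 M sucrose within EcRi (1 to 3 lower without 1 library). Of these, alphaPS4 was also higher in EcRi on 0.5 M sucrose (1.51, adjusted p = 0.00871). Within the controls alphaPS4 was lower on 0.5 M sucrose (-1.69, adjusted p = 0.0289), a call kept in 7 of 12 fits without 1 library. Of 7 salivary gland markers, 7 were lower in EcRi on 0.15 M (4 to 7 without 1 library) and 4 on 0.5 M sucrose (2 to 5), with sums of 20198 to 23820 against 1320 to 3845, and 7251 to 31278 against 1900 to 6949. Within EcRi, Sgs3 was higher on 0.5 M sucrose (1.76, adjusted p = 0.0167), a call kept in 9 of 12 fits without 1 library. On 0.15 M sucrose the muscle sums averaged 22934 in the controls and 11265 in EcRi, with overlap. The muscle marker Mlp84B was called lower in EcRi there (-0.99, adjusted p = 0.0111, kept in 10 of 12 fits). In EcRi on 0.5 M sucrose, 5 of 7 muscle and 2 of 3 tracheal and epidermal markers were higher than on 0.15 M sucrose. Without 1 library these counts were 1 to 7 and 0 to 3, and with upper quartile scaling 2 and 0. The tracheal and epidermal sums in EcRi on 0.15 M and 0.5 M sucrose were 518 to 657 and 709 to 1123, beside emp at 133 to 180 and 685 to 752. In the controls on 0.15 M and 0.5 M sucrose these sums were 584 to 626 and 538 to 857, beside emp at 183 to 221 and 251 to 318. On 0.5 M sucrose the sums averaged 750 in the controls and 924 in EcRi and overlapped, and the emp values did not overlap. The part of tracheal and epidermal cells in the emp values was not tested. Of 6 neuronal markers 0 were called in any comparison, and of 3 crystal cell markers 1 was called, lz, lower on 0.5 M sucrose within EcRi. Between EcRi and control, fat body markers counted 1 higher of 7 on 0.15 M sucrose and 1 higher and 2 lower on 0.5 M sucrose, and glial markers 1 higher of 4 and then 1 higher and 1 lower. In EcRi on 0.5 M sucrose against 0.15 M, CG3523, a fatty acid synthase gene of the fat body, was higher (1.54, adjusted p = 0.000330) and Lsp1alpha, a larval serum protein gene, lower (-1.62, adjusted p = 0.00588). The glial moody was higher there (0.73, adjusted p = 0.00411) and alrm lower (-1.58, adjusted p = 0.000983). Of 6 midgut markers 1 was called, alphaTry, higher there (1.21, adjusted p = 0.0448). That call was kept in 3 of 12 fits without 1 library (adjusted p up to 0.125) and lost with upper quartile scaling (adjusted p = 0.0810). The summed glial markers ranged from 345 to 960 and neuronal ones from 3766 to 7137 over the 12 libraries. The table holds no value of 0 for any gene, and the part of these cells in the receptor values was not tested.

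Genes whose profile over the 12 libraries was nearest to nimC2 and to santa-maria were looked up among 9118 genes with a mean of at least 10, by the root mean square distance of the centred log2 profiles. For nimC2 they were CG3397 (distance 0.60), CG9509 (0.70), CG31100 (0.77), santa-maria (0.92) and dro5 (0.93), against a median distance of 2.66. For santa-maria they were CG3397 (0.73), CG9509 (0.77), CG31100 (0.78), CG8850 (0.79) and CG9812 (0.80), against a median of 2.41, and nimC2 was eighth in its order. The same 3 genes headed both orders. CG3397 averaged 3632 and 3692 in the controls and 166 and 139 in the EcRi libraries, and CG9509 averaged 3788 and 3093 against 265 and 184. Nearness to these profiles selects genes that are low in EcRi, so the distances are a description.

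**Figure D5:**
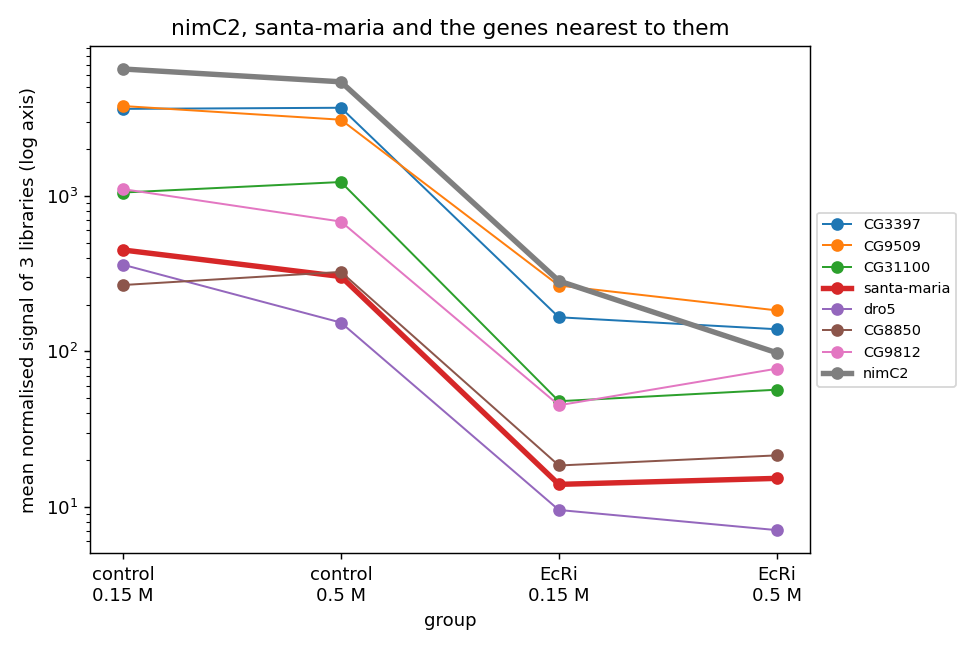
Mean normalised signal (log axis, 3 libraries a group) of nimC2, santa-maria and the genes of nearest profile in the 4 groups; lines join the means of a gene. nimC2 goes on from 284 to 98.1 between the diets in EcRi, whereas santa-maria stays at 13.96 and 15.3.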

How the data were processed

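RNA of 12 fat body samples had been depleted of ribosomal RNA and sequenced on an Illumina HiSeq, per the labels' protocols. The submitters' processing notes name Bowtie 0.12.7, TopHat 1.3.2, edgeR and Cufflinks 1.1.0. No source used here states the genome build, annotation, strand setting or normalisation. The authors deposited 1 normalised signal per gene and library, never 0. Of the values under 1000, 0.455% were exactly whole. A single step turned 12.3% to 100% of the values from 5 to 40 into whole multiples (tolerance 0.05), depending on the library, so read counts were not recovered, depth is unknown, and the signal was not tested with a count model.

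Values were analysed as log2(signal + 1) with limma 3.58.1 in R 4.3.3 (means of 4 groups, trended and robust moderation), on all 10047 genes, each with a mean of at least 1, with Benjamini-Hochberg adjustment. The fit was checked on simulated data. Symbols, gene order, overlaps and exon lengths came from Ensembl 115 (assembly BDGP6.54). The receptors and the lists of related genes and cell type markers were chosen with earlier results of these data known. All receptors are named in each comparison; of each list at most the 3 called genes of smallest p are named, unless stated.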

Additional observations from a re-analysis of the deposited data

Results flagged for a closer look

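The genotype difference differed between the diets for emp, by 1.73 on the log2 scale on 0.5 M sucrose minus 0.15 M sucrose (limma interaction, adjusted p = 0.000581), with EcRi libraries below the controls on 0.15 M and above them on 0.5 M sucrose in 3 of 3 libraries each.

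It also differed for nimC2, by -1.21 (limma interaction, adjusted p = 0.0441), with EcRi libraries below the controls on both diets. This call was kept in 2 of 12 fits without 1 library.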

How the results depend on the processing

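Alternatives were pseudocounts of 0.5 and 5, a minimum mean of 10, upper quartile scaling, library weights, a fit of only the groups compared, a replicate block, and leaving out each library.

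For the diet in the controls, library weights called 1 receptor. For the diet in EcRi, leaving out 1 library gave 2 to 5 receptors, and for the interaction 1 to 2. Over all genes, library weights called 3628 between the genotypes on 0.5 M sucrose, 968 for the diet in the controls and 1546 for the interaction. The diet in the controls called 60 genes with only its 2 groups and 74 to 359 without 1 library, against 173 with all. Leaving out 1 library gave 1355 to 2959 genes for the diet in EcRi and 141 to 532 for the interaction, against 2451 and 394.

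Several small differences changed direction. Among the genotype differences, leaving out 1 library gave -0.37 to 0.47 for eater and -0.15 to 0.62 for Sr-CI on 0.15 M sucrose, and -0.040 to 0.13 for pes and -0.012 to 0.45 for Sr-CI on 0.5 M sucrose. For pes in the controls between diets, upper quartile scaling gave -0.025. For crq between diets in EcRi, it gave -0.11 and leaving out 1 library -0.066 to 0.19. Leaving out 1 library gave -0.44 to 0.12 for eater and -0.30 to 0.63 for santa-maria between diets in EcRi, and -0.18 to 0.66 for eater and -0.41 to 0.37 for Sr-CI in the interaction. The cause was not tested.

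Upper quartile scaling moved the median of all genes by -0.21 for the diet in EcRi and by -0.12 for the interaction. The replicate numbers did not pair the libraries: same-numbered libraries correlated at -0.20 to 0.17, over 0.1 in 2 of 18 pairs, and the own number gave the highest correlation in 8 of 36 comparisons. With the replicate block the interaction called 1 receptor, with nimC2 at adjusted p = 0.0614, and 260 genes.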
